A study of Homo sapiens with 6 samples.

Results

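The CLCN5 intronic cluster is a row of microRNA (miRNA) hairpins on the X chromosome, and 9 of its mature arms were examined here by name among the 2019 human miRNA probes of the array. The arms, in genome order, were hsa-miR-532-5p, hsa-miR-532-3p, hsa-miR-188-5p, hsa-miR-500a-3p, hsa-miR-362-5p, hsa-miR-362-3p, hsa-miR-501-3p, hsa-miR-660-5p and hsa-miR-502-3p, written without the species prefix from here on, and each of the 9 had 1 probe with 1 spot per array. They come from 7 hairpins. A further 6 probes measure other arms of the same hairpins or of the neighbouring hairpin MIR500B.

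The cells were HuH7, a long-established line from a human liver cancer (hepatocellular carcinoma). One group of 3 samples received cisplatin, a platinum drug that crosslinks DNA, at 1 µg/ml for 24 h, and the control group of 3 samples was kept without it for the same time. Total RNA was labelled with 1 dye and hybridised to 1 array per sample. Nothing in the labels says that the 3 samples of a group were separate cultures, and the spread behind each p-value is that of these samples, possibly a technical one. The signal comes from bulk RNA, in which fewer cells with a miRNA and less of it per cell cannot be told apart.

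A miRNA hairpin is cut into a duplex, and 1 of its arms, named 5p or 3p by the side of the hairpin it comes from, is loaded into an Argonaute protein and guides it to messenger RNAs through its seed, bases 2 to 8. Hairpins inside an intron are often transcribed with their host gene. CLCN5, the host here, encodes a chloride and proton exchanger of endosomes that is mutated in Dent disease, an inherited kidney disorder.

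In the RefSeq annotation on build GRCh38.p14 the 8 hairpins, MIR500B included, lie inside CLCN5 on its own strand, between chrX:50003148 and 50014683, a stretch of 11536 bases. Of 3 CLCN5 transcription starts in the RefSeq promoter table, 1 lies before the cluster in the direction of transcription, 80.6 kb from its first mature arm, and 2 lie after it. MIR532 and MIR188 form a first pair, in which the mature arms of MIR188 begin 292 positions after the last mature base of MIR532. Those of MIR500A begin 4867 positions after the last mature base of MIR188.

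The RefSeq extract used here held the mature sequence of 8 of the 9 arms, all but miR-660-5p. These are shown 5′ to 3′ with the seed in capitals, since they show which probes measure near-identical RNAs. All lie on the plus strand of GRCh38.p14.
miR-532-5p (chrX:50003167-50003188): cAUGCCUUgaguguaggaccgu
miR-532-3p (chrX:50003204-50003225): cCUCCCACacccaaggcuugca
miR-188-5p (chrX:50003517-50003537): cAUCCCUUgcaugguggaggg
miR-500a-3p (chrX:50008482-50008503): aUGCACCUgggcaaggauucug
miR-362-5p (chrX:50008968-50008991): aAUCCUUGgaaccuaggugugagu
miR-362-3p (chrX:50009005-50009026): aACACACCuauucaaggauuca
miR-501-3p (chrX:50009772-50009793): aAUGCACCcgggcaaggauucu
miR-502-3p (chrX:50014649-50014670): aAUGCACCugggcaaggauuca

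miR-501-3p and miR-502-3p carry 1 seed, and miR-500a-3p begins 1 base further into the same stretch. Without gaps, miR-500a-3p matches miR-501-3p and miR-502-3p at 20 of 21 aligned bases each, and miR-501-3p matches miR-502-3p at 20 of 22. The probe sequences were not used here, and how far these 3 probes take up each other's RNA was not tested. The seed of miR-362-5p is also that of miR-500b-5p, and the seed of miR-362-3p is that of miR-329-3p from another locus. The miR-329-3p probe lay above the blank spots on 1 of 6 arrays.

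The hairpins MIR362 and MIR532 each gave both arms to the 9, and they differed in whether both arms were seen. They are printed with the mature arms in capitals, the 5p arm first.
MIR532 (chrX:50003148-50003238, plus strand): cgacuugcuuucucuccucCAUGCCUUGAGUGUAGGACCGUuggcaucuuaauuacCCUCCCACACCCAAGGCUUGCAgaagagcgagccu
MIR362 (chrX:50008964-50009028, plus strand): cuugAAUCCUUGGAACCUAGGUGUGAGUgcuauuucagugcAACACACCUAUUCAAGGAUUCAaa

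The cluster was dim on these arrays. A probe was counted as above background where its foreground, the median pixel intensity of its spot, lay more than 2 SD over the mean of the array's 925 blank spots. This limit was 220.1, 239.8 and 228 on control arrays 1, 2 and 3 and 209, 247 and 227 on cisplatin arrays 1, 2 and 3, and 329 to 738 human probes passed it per array. miR-660-5p, miR-362-5p and miR-362-3p lay above it on all 6 arrays. Thus 3 of 9 arms passed on every array, where 243 of the 2019 human probes did. miR-532-5p passed on 5 arrays, miR-188-5p on 4, and miR-500a-3p and miR-502-3p on 2 each. miR-532-3p and miR-501-3p passed on 0 of 6, as did 30.9% of all human probes. The number of arrays limits the precision of every value that follows.

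**Figure D1:**
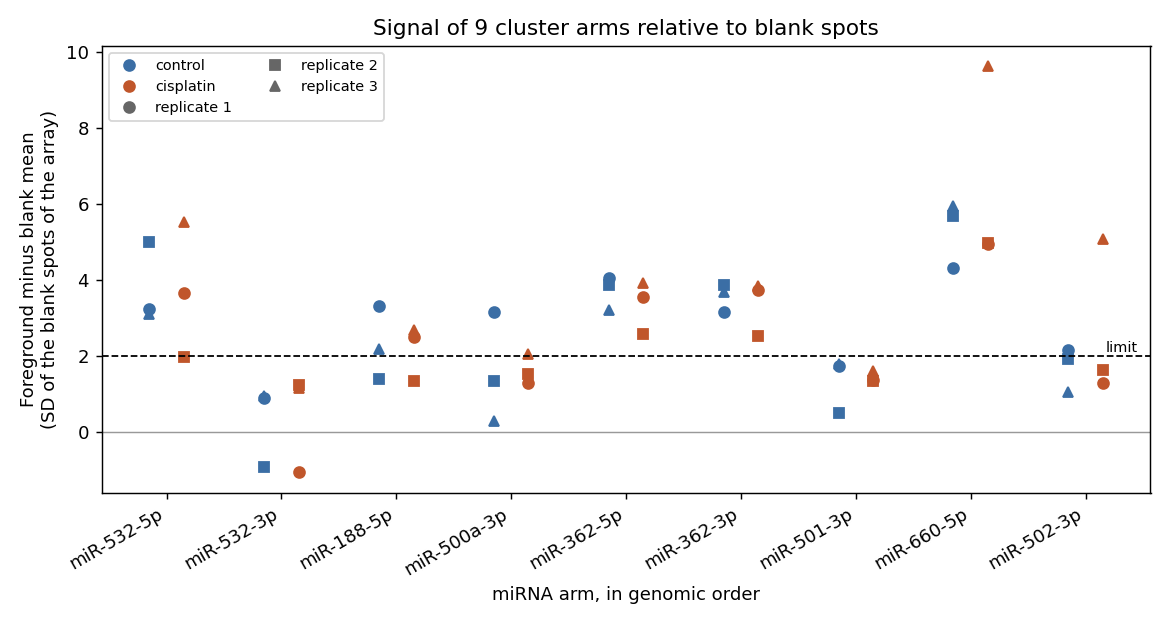
Distance of each of the 9 arms from the blank spots on each array, as foreground minus the blank mean in units of the blank SD, with control in blue, cisplatin in orange, the replicate number by symbol and the limit of 2 SD dashed. miR-660-5p is the arm whose lowest value, 4.32, is farthest above the limit, while all 6 values of miR-532-3p and of miR-501-3p lie below it.

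miR-660-5p, for which repression of the p53 inhibitor MDM2 has been described, was the arm that stood clearest of the blank spots. Its raw foreground was 248, 289 and 270 on control arrays 1, 2 and 3 and 245, 300.0 and 313 on cisplatin arrays 1, 2 and 3. No more than 2 of the 925 blank spots of an array reached these values, and 0 of the 28 blank spots of its own printing block did on any array. In blank SD its distance from the blank mean ran from 4.32 on control 1 to 9.61 on cisplatin 3. In raw foreground the groups overlapped: cisplatin 1 was the lowest of all 6 arrays and cisplatin 3 the highest. Cisplatin 1 also had the lowest blank mean (183.9).

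The arms of MIR362 were both seen. miR-362-5p, described as a repressor of the NF-κB regulator CYLD, had a foreground of 245, 265 and 241 on control arrays 1, 2 and 3 and of 228, 257 and 249 on cisplatin arrays 1, 2 and 3. Its partner miR-362-3p had 234, 265 and 246 on control and 230.0, 256 and 248 on cisplatin arrays. For both arms cisplatin 1 was the lowest array in raw foreground and control 2 the highest, and the groups overlapped. These arrays also had the lowest and the highest blank mean (183.9 and 213.1). The distance from the blank mean was 2.58 to 4.07 blank SD for miR-362-5p and 2.53 to 3.88 for miR-362-3p, lowest on cisplatin 2 for each, the array with the largest blank SD.

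Of MIR532, only the 5p arm lay above the blank limit. miR-532-5p, for which repression of the transcription factor RUNX3 has been described, had a foreground of 235, 280.0 and 240.0 on control arrays 1, 2 and 3 and of 229, 246 and 267 on cisplatin arrays 1, 2 and 3. It missed the limit on cisplatin 2 alone, by less than 1 intensity unit (246 against 246.5). That array had the largest blank SD (18.0, against 10.6 to 13.4 on the others), and its brightest blank spot read 575. miR-532-3p stayed among the blank spots, at 207, 201 and 217 on control and 171, 233 and 218 on cisplatin arrays. On control 2 it was matched or exceeded by 759 of the 925 blank spots and on cisplatin 1 by 802.

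miR-188-5p was above the limit on arrays 1 and 3 of each group and below it on array 2 of each. Its foreground was 236, 232 and 230.0 on control arrays 1, 2 and 3 and 215, 235 and 235 on cisplatin arrays 1, 2 and 3. On control 2, 77 of the 925 blank spots reached its signal.

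The near-identical arms miR-500a-3p, miR-501-3p and miR-502-3p were mostly within the blank spots. miR-500a-3p, reported to repress SOCS regulators of cytokine signalling, read 234, 231 and 210.0 on control and 200.0, 238 and 228 on cisplatin arrays, above the limit on control 1 and cisplatin 3. miR-502-3p read 222, 239 and 218 on control and 200.0, 240.0 and 262 on cisplatin arrays, above the limit on control 1 and cisplatin 3 too. Its value on cisplatin 3 lay 5.08 blank SD above the blank mean, and its next highest distance was 2.16. miR-501-3p ran from 201 to 235 over the 6 arrays and stayed below the limit on each.

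Local background differed with the place of a spot. Spots in the first row of each printing block had a median local background of 147 over human probes and arrays, against 164 to 165 in rows 2, 3, 4, 6 and 7. miR-362-5p and miR-188-5p were printed in that first row, miR-362-3p in row 3 and the other 6 arms in row 2. With the local background subtracted from probes and blank spots alike, miR-660-5p and miR-362-5p stayed above the limit on 6 arrays, miR-188-5p on 4, miR-362-3p and miR-532-5p on 3, miR-502-3p on 1 and the other 3 arms on 0. With a limit of 3 SD, miR-660-5p alone of the 9 passed on all 6 arrays, where 10.1% of human probes did. With pixel means in place of pixel medians it passed on 3 arrays, and 2.67% of human probes passed on all 6. Beyond these settings, the part of block row and of bright blank spots in the counts was not tested.

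**Figure D2:**
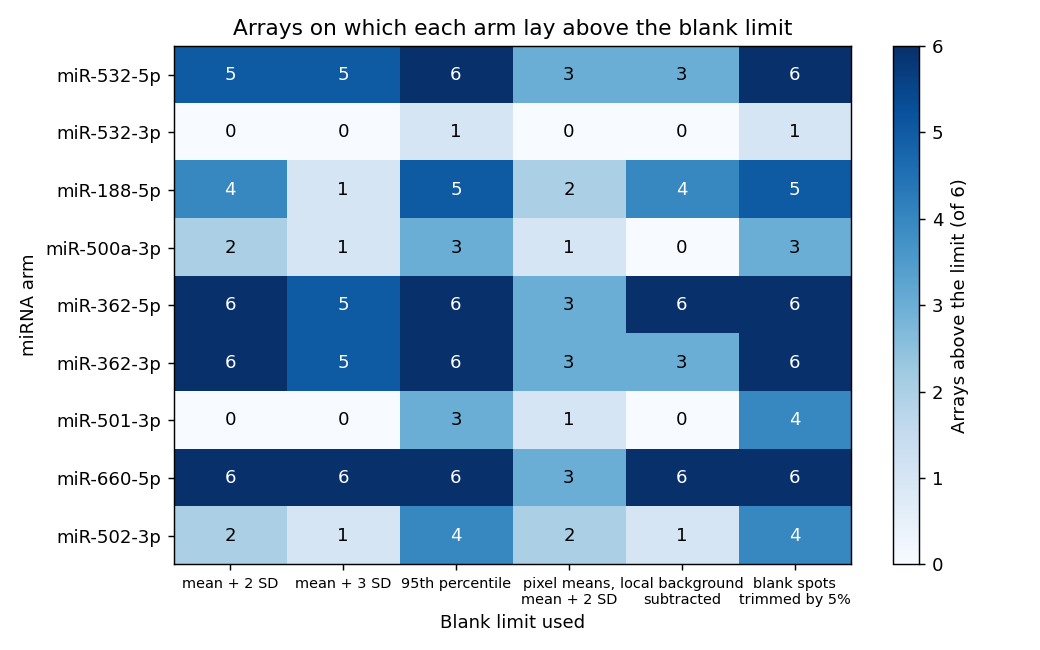
Number of arrays, of 6, on which each arm (rows) lay above the blank limit, for 6 ways of setting that limit (columns), with darker blue for more arrays. miR-660-5p shows 6 in every column but that of pixel means, where it shows 3, and miR-532-3p shows 0 or 1 throughout.

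The other arms of these hairpins were also close to the blank spots. miR-501-5p passed the limit on 3 arrays, the probe named miR-500b on 2, and miR-188-3p, miR-500a-5p, miR-660-3p and miR-502-5p on 1 each. Among the 5p arms of this group, miR-500a-5p is identical to miR-500b-5p over all 18 bases of the latter, while miR-501-5p and miR-502-5p match at 15 of 21 aligned bases. Over the 6 arrays their foreground ranged from 180.0 for miR-660-3p on cisplatin 1 to 259 for miR-501-5p on control 2. None of these 6 probes was above the limit on all 3 arrays of a group, so none was tested. For MIR660, the 5p arm was thus above the limit on 6 arrays and the 3p arm on 1, and for MIR188 the counts were 4 and 1. For MIR501 the order was the other way, with the 5p arm above the limit on 3 arrays and the 3p arm on 0. For MIR500A and for MIR502 the 5p arm passed on 1 array and the 3p arm on 2. The orders for MIR501 and MIR500A changed with the limit, while MIR660, MIR188 and MIR502 kept theirs under every way of setting it. With pixel means each arm of MIR501 and of MIR500A passed on 1 array. With local background subtracted, miR-500a-5p passed on 1 array and miR-500a-3p on 0.

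The authors' deposited table lists a value only above a limit of its own, from 698 probes on control 2 to 988 on control 1. That limit is looser than the one used here. miR-501-3p is listed on 4 arrays there, though it stayed below the limit used here on each array. It lists miR-660-5p, miR-532-5p, miR-362-5p and miR-362-3p on 6 of 6 arrays, miR-188-5p on 5, miR-501-3p and miR-502-3p on 4, miR-500a-3p on 3 and miR-532-3p on 1. For miR-660-5p the authors' deposited table gives 52.1, 71.0 and 69.2 on control arrays 1, 2 and 3. It gives 57.2, 89.9 and 110.7 on cisplatin arrays 1, 2 and 3.

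The comparison of cisplatin with control asked whether the drug was followed by a change in these miRNAs. It covered the 324 of 2019 probes above the limit on all 3 arrays of at least 1 group. Of the 9 arms 4 were among them, miR-660-5p, miR-362-5p, miR-362-3p and miR-532-5p. miR-532-5p entered through the control arrays alone, since it was above the limit on 2 of 3 cisplatin arrays. The other 5 arms were below the limit on at least 1 array of each group and are given no fold change.

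None of the 4 tested arms passed the threshold of a limma adjusted p under 0.05. That is 0 of 4, beside 0.309% of the 324 tested probes (1 probe, miR-1304-3p from outside the cluster, named after its value of 0.59 with an adjusted p of 0.0118 was seen), and 0 of the 4 had an unadjusted p under 0.05, beside 15.7% of the tested probes. The median difference of the 4 arms, cisplatin minus control in log2 normalized signal, was -0.00088, beside -0.012 over all tested probes. Differences were positive for 2 of the 4 arms and negative for 2.

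**Figure D3:**
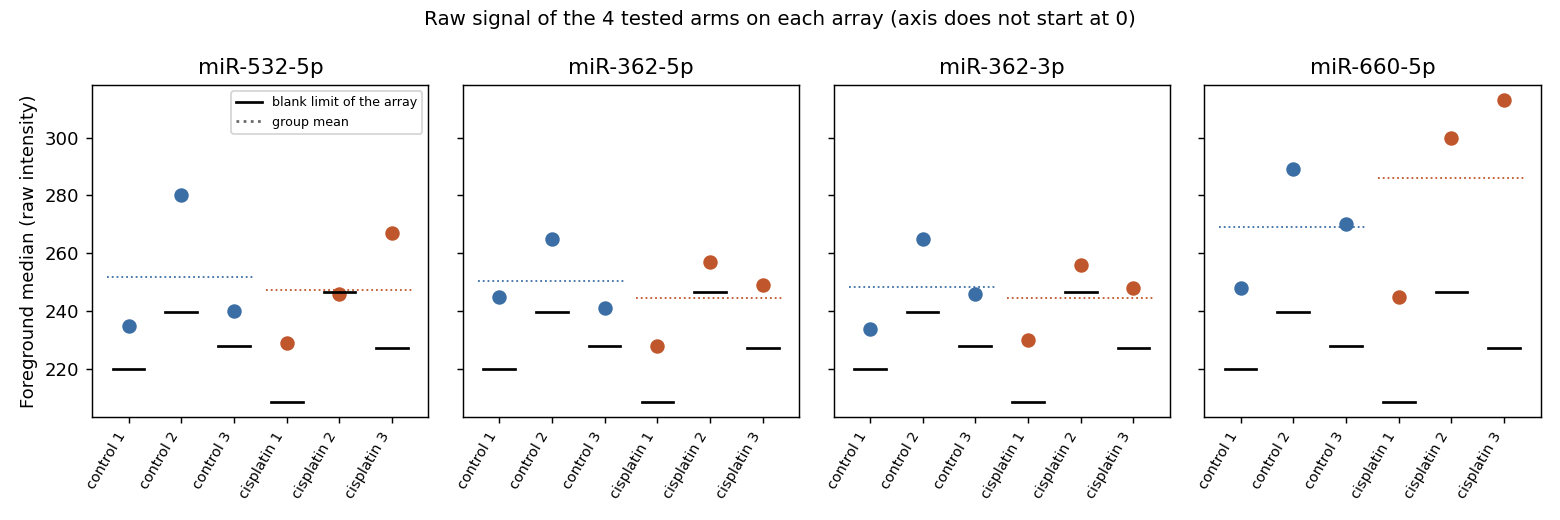
Raw foreground intensity of the 4 tested arms on each of the 6 arrays, with control points in blue, cisplatin points in orange, a black bar for the blank limit of that array and dotted lines for group means. Control and cisplatin points overlap for each arm, and miR-532-5p on cisplatin 2 lies at the bar.

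miR-660-5p had the largest difference of the 4. Its log2 normalized signal averaged 7.08 ± 0.12 in control and 7.24 ± 0.17 in cisplatin samples (SD, n = 3 each), a difference of 0.16 (SE 0.11, limma adjusted p = 0.59). This is 1.12-fold on that scale, with a 95% interval from 0.925 to 1.35. By same-numbered pairs the difference was 0.035, 0.11 and 0.33 for numbers 1, 2 and 3, so the cisplatin sample was higher in 3 of 3 pairs after normalization, but in 2 of 3 pairs in raw foreground. The value depended on the scale, from 0.066 without background correction to 0.38 in the authors' deposited table, or 0.24 there once the median shift of 0.14 over the tested probes was taken off. With the replicate number as a block, limma's adjusted p for miR-660-5p was 0.401, and 0 of the 324 probes passed, with 57 at an unadjusted p under 0.05. Without cisplatin replicate 1 the difference was 0.26 (limma adjusted p = 0.285).

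The arms of MIR362 lay on either side of no change. miR-362-5p averaged 7.24 ± 0.16 in control and 7.18 ± 0.056 in cisplatin samples in log2 normalized signal (SD, n = 3 each). The difference was -0.065 (SE 0.093, limma adjusted p = 0.821), or 0.956-fold with a 95% interval from 0.813 to 1.12. miR-362-3p averaged 6.75 ± 0.10 in control and 6.76 ± 0.059 in cisplatin samples (SD, n = 3 each), a difference of 0.011 (SE 0.070, limma adjusted p = 0.963), or 1.01-fold with an interval from 0.892 to 1.14. In each arm the cisplatin sample was higher in 1 of 3 pairs. The miR-362-3p difference was smaller than the SD of either group. That of miR-362-5p was smaller than the control SD and larger than the cisplatin SD. Without control replicate 3 the miR-362-5p difference was -0.16 (adjusted p = 0.343), since control 3 was its lowest control sample.

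miR-532-5p averaged 6.79 ± 0.17 in control and 6.78 ± 0.10 in cisplatin samples in log2 normalized signal (SD, n = 3 each). The difference was -0.013 (SE 0.11, limma adjusted p = 0.983), or 0.991-fold with a 95% interval from 0.826 to 1.19. Its pairs went apart, with 0.11 and 0.17 for numbers 1 and 3 and -0.31 for number 2. Control 2 was its highest and cisplatin 2 its lowest sample on this scale. These arrays alone had the numbers 1 and 2 under the scanner's heading Cell, read here as the position on the slide. Among the arrays at positions 3 and 4 the difference was 0.14 (adjusted p = 0.521). Controls lay at positions 1 and 3 and cisplatin samples at 2 and 4, so that single positions cannot be told apart from the groups.

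**Figure D4:**
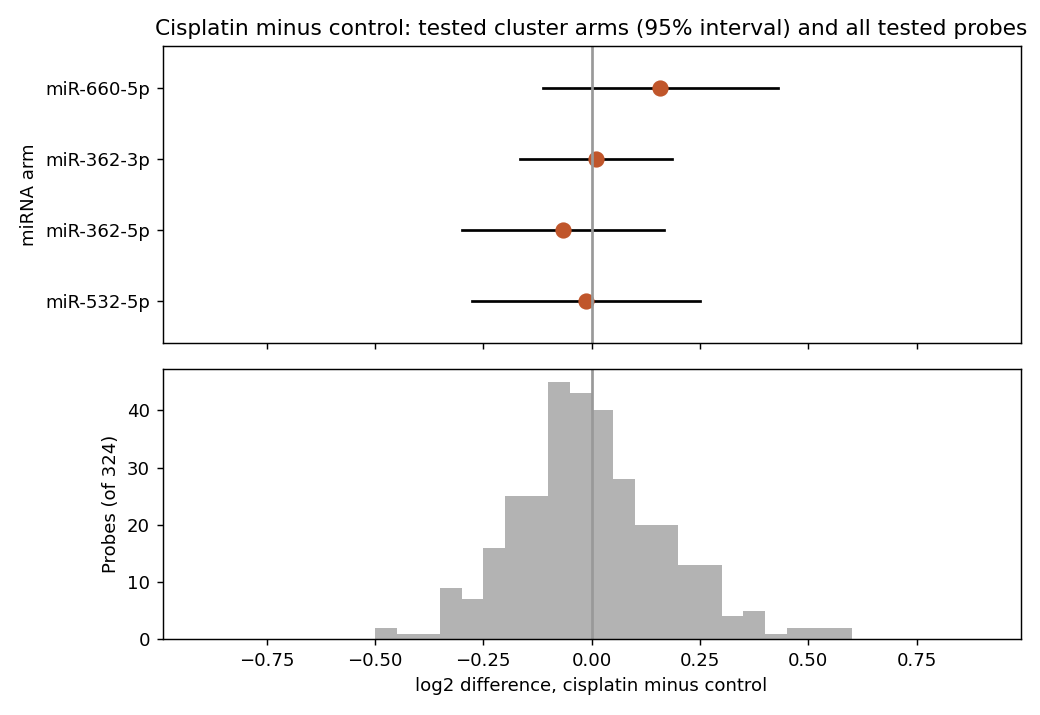
The upper panel gives the log2 difference, cisplatin minus control, of the 4 tested arms as points with 95% intervals as bars, and the lower panel the number of the 324 tested probes at each difference. Each interval spans 0, and the points lie between -0.065 and 0.16.

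The intervals bound what these arrays could have missed. On the scale of the normalized signal they leave room for a rise of miR-660-5p of up to 1.35-fold and a fall of miR-362-5p to 0.813-fold. The bounds hold for that scale only. With an offset of 16 in place of 50 in the background correction, the difference of miR-660-5p was 0.21 in place of 0.16. In the authors' deposited values it was 0.38 (SE 0.28) before the shift of all tested probes was taken off, so larger changes fit within the error there.

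The pattern of miR-660-5p over the 6 arrays was compared with that of every other tested probe, as the root mean square distance between log2 normalized signals after each probe's own mean was taken off. The nearest 5 probes outside the cluster were miR-16-5p at 0.042, miR-4707-5p at 0.057, miR-663a at 0.067, miR-1237-5p at 0.070 and miR-22-5p at 0.078, beside a median of 0.197 over the 323 other probes. Their differences between cisplatin and control ranged from 0.071 to 0.21, and none passed (smallest limma adjusted p = 0.325). The other arms of the cluster were not among the nearest. miR-532-5p ranked 62, miR-362-3p 66 and miR-362-5p 118 of 323, at distances of 0.15, 0.15 and 0.18. Each was nearer than the median of 0.197. The nearest 5 were picked by this distance, so their closeness is no separate result. These distances are a description over 6 arrays that share 1 normalization.

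**Figure D5:**
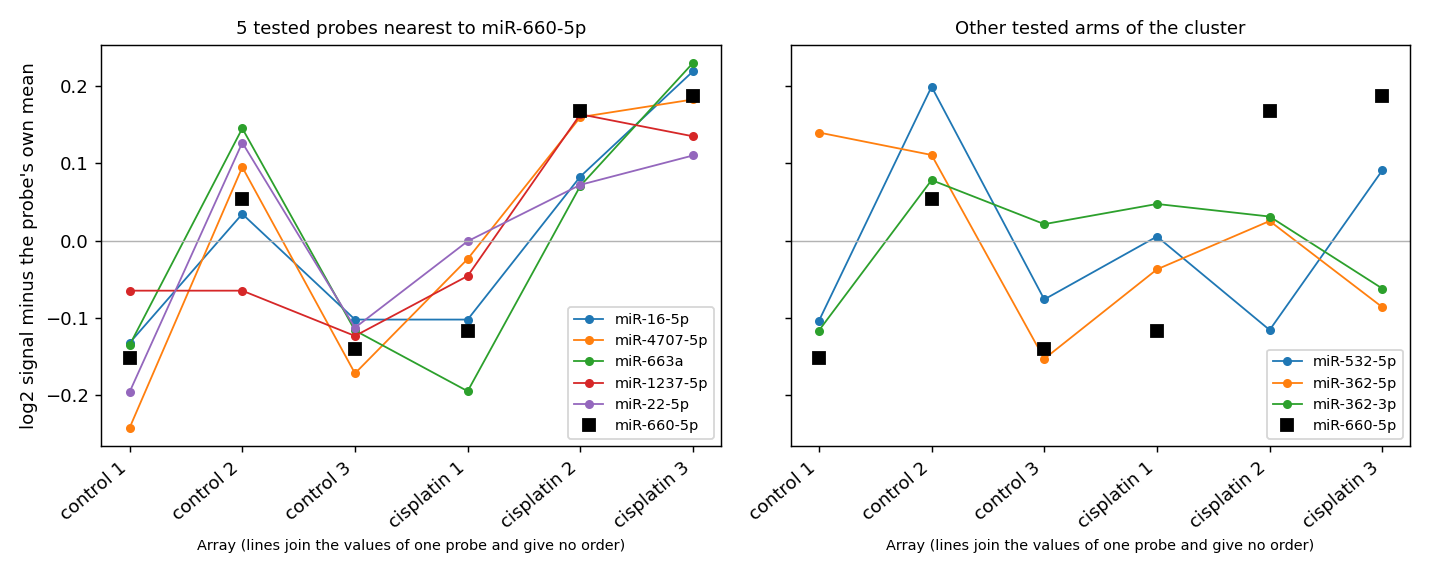
log2 normalized signal less each probe's own mean on the 6 arrays, with miR-660-5p as black squares in both panels, its 5 nearest tested probes on the left and the 3 other tested arms of the cluster on the right. The probes on the left were chosen for their closeness to the squares. Of the cluster arms on the right, miR-362-5p is apart from the square on control 1 (0.14 against -0.15).

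The cell line's label was checked with marker miRNAs. All 4 hepatocyte markers, miR-122-5p, miR-192-5p, miR-194-5p and miR-885-5p, were above the limit on 6 of 6 arrays, with raw foreground from 332 to 5169. Of 15 markers of endothelial, stromal, muscle, blood and neural cells, 3 were above it on all 6 arrays, miR-126-3p, miR-143-3p and miR-145-5p, and 2 on none. The highest of the 15 reached 346.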

How the data were processed

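Per the file headers, every array's file holds linear intensity for spot and surroundings, as pixel medians and pixel means, under a green channel's heading. Per the labels the dye was Hy5, a red one. The authors' deposited value table holds intensity too, scaled to a median of 31. Each of its columns equals the foreground median less 1 constant, times 1 factor (largest residual 5.4e-06), and its probes under a limit are not listed. It served as an alternative only. Neither the scanner's software nor the probe sequences were used here.

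With limma 3.58.1 (R 4.3.3), normexp with an offset of 50 removed local background from the pixel medians. The log2 values of the human probes were then quantile normalized. The test was limma's moderated one from lmFit and eBayes, on 4 residual plus 1.52 prior degrees of freedom, with Benjamini-Hochberg adjustment over the 324 tested probes. Intervals are 95% intervals of that fit. The steps were also run on simulated arrays with known changes, whose outcome is not given and on which no result here rests. Figures were drawn with matplotlib 3.10.9.

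The members and lists were chosen with earlier results of these data known. Named are the 9 arms, the 6 other arms of their hairpins on the array, the 5 probes nearest in pattern to the brightest arm above the limit on all arrays, and the cell markers. miR-329-3p was added for its seed. Same-numbered samples deviated together from their group means (0.44 for number 1, 0.24 for number 2 and 0.20 for number 3, as correlations across tested probes), so differences were also given by pairs. Cisplatin 2 and control 3 correlated as well (0.23), so for number 3 the check does not single out the pair. The main test, its standard errors and its intervals did not use the pairing, which entered as the replicate block among the alternatives. The pairing rests on the labels' numbers and this check.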

Additional observations from a re-analysis of the deposited data

How the results depend on the processing

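No cluster probe passed the threshold under any of 22 alternatives, the replicate block included, and the median difference of the tested arms stayed within the spread between samples (-0.028 to 0.089 over all alternatives, -0.028 to 0.068 with 1 array left out). The count over all tested probes was 1. It was 3 without background correction, 2 with median scaling, 4 with cyclic loess, 3 with the 75th percentile, and 47 with position as a random block, where the estimated correlation was -0.62, which shrinks standard errors. It was 0 without normalization, without a detection filter, for probes detected on all 6 arrays, with the replicate block for the pairing, under trend and robust moderation, with the authors' values, with pixel means and at positions 3 and 4 only. These limma fits had 33, 97, 39, 57, 38, 24, 39 and 38 probes at an unadjusted p under 0.05. Leaving out 1 array gave 0 to 3: 2 without control replicate 1, 3 without cisplatin replicate 2, and 0 without control replicate 2 or 3 or cisplatin replicate 1 or 3 (46, 47, 49 and 41 at an unadjusted p under 0.05).

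miR-660-5p was positive throughout (0.066 to 0.38, and 0.11 to 0.26 with 1 array left out). Each of the other 3 arms changed sign under some settings. miR-532-5p was 8.1e-05 without background correction, 0.040 with the authors' values, 0.025 with pixel means, 0.066 with the random block and 0.14 at positions 3 and 4 (-0.31 at positions 1 and 2), and -0.068 to 0.083 with 1 array left out. miR-362-5p was 0.0013 with median scaling and 0.0084 with the 75th percentile, but -0.099 under each less the shift of all tested probes, and -0.16 to -0.012 with 1 array left out. miR-362-3p was -0.0048 with median scaling (-0.10 less the shift there and with the 75th percentile), -0.022 without normalization, -0.032 with pixel means and -0.047 at positions 1 and 2, and -0.044 to 0.053 with 1 array left out. That shift was a median of 0.10 with median scaling, 0.11 with the 75th percentile and 0.083 without normalization. It was 0.14 with the authors' values, where miR-532-5p less the shift was -0.10. Of 9 arms, 3 were above the limit on all 6 arrays, but 1 at 3 SD and 0 with pixel means, 2 with local background subtracted and 4 with the 95th percentile or with trimmed blank spots. Of the 2019 human probes, 243 were above the main limit on all 6 arrays, 204 at 3 SD and 54 with pixel means. With local background subtracted 243 of them were, with the 95th percentile 281 and with trimmed blank spots 292. The position, local background and trimmed settings were chosen after seeing the data. Except as stated, the cause was not tested.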
